A study of Mus musculus with 8 samples.

Results

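The genes described here are the 7 mouse milk protein genes Csn1s1, Csn2, Csn1s2a, Csn1s2b, Csn3, Wap and Lalba, 5 caseins and 2 whey proteins, out of 25466 genes in the table. They were chosen by name, and all 7 are in the table. They were measured by bulk RNA-seq in 8 libraries of medullary thymic epithelial cells (mTECs) that had been sorted from the thymus by flow cytometry. The cells were Epcam-positive, CDR1-negative and CD45-negative, and were split by surface Tspan8 (negative or positive) and by surface MHC class II (low or high). This gave the subsets Tspan8negMHCIIlo, Tspan8negMHCIIhi, Tspan8posMHCIIhi and Tspan8posMHCIIlo, each with 2 libraries that the labels call biological replicates. All libraries carry the genotype wt and no treatment. The study's methods name young BL6N6 mice, and the labels give no age, sex or number of mice per library. The libraries are bulk, so a lower value can come from fewer cells that express a gene or from less RNA per cell, and these cannot be told apart.

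Caseins are the phosphoproteins that carry calcium in milk, and they are made in the lactating mammary gland under prolactin, glucocorticoids and the transcription factor Stat5. The casein genes lie side by side on a single chromosome, whereas the genes of the whey proteins Wap and Lalba lie elsewhere. In the thymus, mTECs transcribe many such genes of distant organs, which is called promiscuous gene expression and lets developing T cells meet these proteins. Aire, a nuclear protein made mainly by MHCIIhi mTECs, is needed for a large share of it.

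The 5 caseins span 266 kb of chromosome 5 (GRCm38, GENCODE annotation). Csn1s1, an alpha-S1 casein, is at chr5:87666208-87682578 on the plus strand, and Csn2, the beta-casein, is at chr5:87692624-87699630 on the minus strand. The alpha-S2-type caseins Csn1s2a and Csn1s2b follow at chr5:87774567-87788797 and chr5:87808082-87824426, both on the plus strand. Csn3, the kappa-casein that coats casein micelles, is at chr5:87925579-87932665 on the plus strand and is overlapped on the other strand by 1700066N21Rik, so its counts are uncertain where strand was not used. Wap, whey acidic protein, is at chr11:6635482-6638637 and Lalba, alpha-lactalbumin, at chr15:98480400-98482721, both on the minus strand. Csn1s2a and Csn1s2b are paralogs, which leaves the assignment of reads between them uncertain.

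The RefSeq promoter table of the GRCm38.p6 assembly held 5 of the 7 genes, without Csn1s2b and Csn3. The 250 bases before the RefSeq start are shown for the 3 caseins whose levels separated the subsets most clearly. Capitals mark matches to TTCNNNGAA or TTCNNNNGAA, the palindromes with 3 or 4 bases between the arms that STAT proteins are known to bind, searched on both strands.
Csn1s1, chr5:87665958-87666207, plus strand: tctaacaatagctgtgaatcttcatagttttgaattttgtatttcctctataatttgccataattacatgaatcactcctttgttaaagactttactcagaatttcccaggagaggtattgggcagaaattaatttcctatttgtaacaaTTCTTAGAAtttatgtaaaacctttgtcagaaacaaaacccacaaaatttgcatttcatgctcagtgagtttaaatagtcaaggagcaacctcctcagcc
Csn2, chr5:87699426-87699675, minus strand: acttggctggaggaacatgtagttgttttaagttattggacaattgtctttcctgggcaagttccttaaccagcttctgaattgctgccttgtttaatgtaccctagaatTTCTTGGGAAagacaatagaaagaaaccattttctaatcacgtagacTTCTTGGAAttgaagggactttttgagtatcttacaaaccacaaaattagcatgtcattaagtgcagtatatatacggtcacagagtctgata
Csn1s2a, chr5:87774200-87774449, plus strand: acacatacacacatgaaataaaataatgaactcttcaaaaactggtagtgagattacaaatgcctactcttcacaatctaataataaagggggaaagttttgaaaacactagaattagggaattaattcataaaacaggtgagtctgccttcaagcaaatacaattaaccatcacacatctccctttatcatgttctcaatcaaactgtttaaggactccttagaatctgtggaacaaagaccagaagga
TTCTTAGAA in Csn1s1 began 100 bases before the start. Csn2 held TTCTTGGAA 93 bases before the start and TTCTTGGGAA 140 bases before it. Neither palindrome was found in the window of Csn1s2a, Wap or Lalba. Of 32851 promoters of this length, 7.02% held TTCNNNGAA and 5.85% held TTCNNNNGAA. TATAAA was in none of the 5 windows and in 12.4% of all promoters. GGAAGT, an Ets core, was found in the window of Wap alone among the 5 and in 19.7% of all promoters. CCACCC, a Kruppel-like box, was found in Wap and, on the reverse strand, in Lalba, and in 28.1% of all promoters. These are matches of letters, and the RefSeq and GENCODE starts of Csn2, Csn1s2a, Wap and Lalba differ.

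The library totals ran from 1941518 to 7783841 counts with a median of 4857084. A floor of 3 counts was used, which equals 0.385 CPM (a gene's counts scaled to a common library total of 1000000) in the largest library and 1.55 CPM in the smallest. The sort marker followed the labels, with Tspan8 at 3.76 to 15.8 CPM in the Tspan8neg libraries and 326 to 374 CPM in the Tspan8pos libraries. The 8 mTEC markers (Epcam, Krt5, Krt14, Cldn3, Cldn4, Foxn1, Aire and Fezf2) were above 0 in every library and summed to 3473 to 5594 CPM. The 8 thymocyte markers were also above 0 in every library. They summed to 437 and 1295 CPM in the Tspan8negMHCIIlo libraries and to 68.8 to 208 CPM in the other 6, so the Tspan8negMHCIIlo replicates differed from each other in this respect. The 6 cortical thymic epithelial markers summed to 972 and 1168 CPM in Tspan8negMHCIIlo and 305 to 458 CPM elsewhere. They did not all move together. In MHCIIhi 1 of the 6 was called higher and 2 lower among Tspan8neg cells, and 1 higher and none lower among Tspan8pos cells. In Tspan8pos within MHCIIlo none was called higher and 4 lower, beside 12.1% and 9.34% of all genes tested. Markers of B cells summed to 23.0 to 65.9 CPM. The 5 endothelial markers followed the MHCII level, with sums of 83.5 to 132 CPM in the MHCIIlo and 24.4 to 31.1 CPM in the MHCIIhi libraries, and 3 of the 5 were called lower in MHCIIhi at each Tspan8 level. The 6 markers of dendritic cells and macrophages summed to 27.2 and 64.4 CPM in Tspan8negMHCIIlo, 96.6 and 112 CPM in Tspan8negMHCIIhi, 170 and 200.1 CPM in Tspan8posMHCIIhi, and 100.4 and 109 CPM in Tspan8posMHCIIlo, and 3 of the 6 were called higher in MHCIIhi among Tspan8neg cells and none among Tspan8pos cells. In the Tspan8pos libraries most of this sum was Itgam. Of all genes tested, 13.1% were called higher and 9.67% lower in MHCIIhi among Tspan8neg cells, and 4.59% and 2.62% among Tspan8pos cells. The 5 fibroblast markers summed to 101 to 183 CPM in the Tspan8neg and 39.7 to 66.5 CPM in the Tspan8pos libraries. All of these markers were above 0 in every library, except Itgax and Adgre1 in replicate 1 of Tspan8posMHCIIlo and Emcn in replicate 1 of Tspan8negMHCIIhi and both Tspan8posMHCIIhi libraries. The part of these cells in the results below was not tested.

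Csn2 made up nearly all counts of the 7 genes in every subset. The 7 genes together gave 753 and 945 CPM in Tspan8negMHCIIhi, 231 and 252 CPM in Tspan8posMHCIIhi, 85.5 and 92.9 CPM in Tspan8posMHCIIlo, and 31.8 and 60.6 CPM in Tspan8negMHCIIlo. Between 92.2% (95% Wilson interval 87.1 to 95.4) and 97.3% (92.3 to 99.1) of these counts were Csn2, both extremes coming from libraries with few milk counts. Intervals and floors here cover counting error only. By CPM, Csn2 ranked 105th and 75th among the 22705 and 23570 genes above 0 in the Tspan8negMHCIIhi libraries. In Tspan8negMHCIIlo it ranked 6479th and 4075th among 19485 and 19976 genes.

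Over the 8 libraries the counts summed to 13514 for Csn2, 255 for Csn1s2a, 174 for Csn1s1, 111 for Csn3, 59 for Wap, 4 for Csn1s2b and 3 for Lalba. To compare genes with each other, CPM was divided by the length in kb of the longest coding transcript. Per kb, Csn2 stood 33.4 and 32.9 times above Csn1s2a, the second highest of the 7 genes, in the Tspan8negMHCIIhi libraries. In Tspan8posMHCIIhi it stood 29.5 and 43.3 times above Csn1s2a. In Tspan8posMHCIIlo the second gene was Csn1s1, which Csn2 exceeded 14.8 and 33.4 times per kb. In Tspan8negMHCIIhi the mean levels were 611 ± 98.2 CPM per kb (SD, n = 2) for Csn2, 18.5 for Csn1s2a, 6.34 for Csn1s1, 5.99 for Wap, 4.10 for Csn3, 0.239 for Csn1s2b and 0.0888 for Lalba. The last 2 values rest on 4 counts and 1 count.

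**Figure D1:**
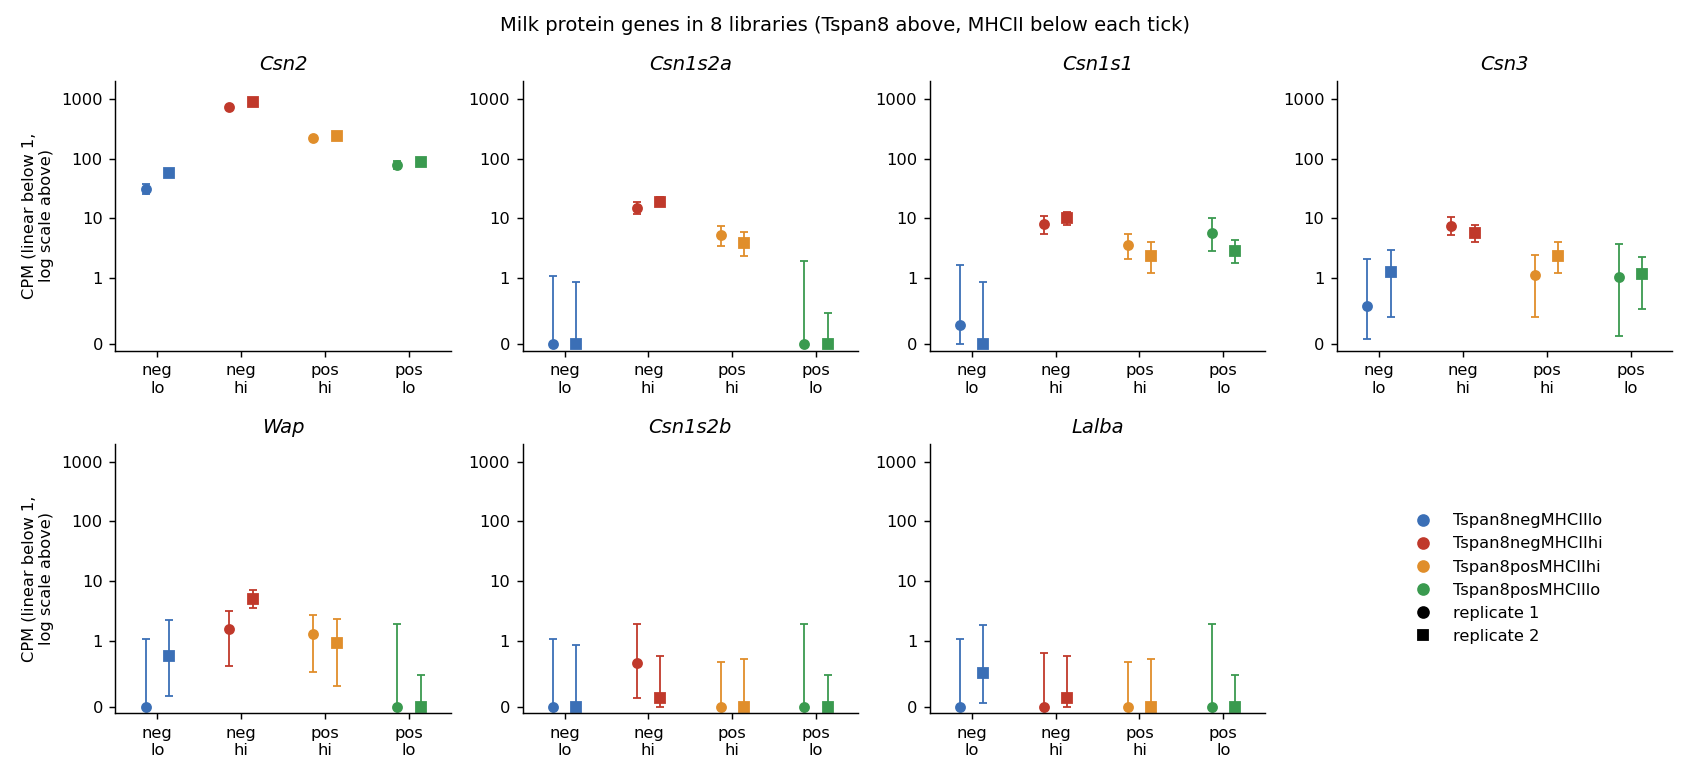
Level of each of the 7 milk protein genes in the 8 libraries, in CPM on an axis that is linear below 1 and logarithmic above it, with exact 95% Poisson intervals of the count as bars. Csn2 lies between 31.0 and 905 CPM, no other gene exceeds 19.0 CPM, and Csn1s2a has 0 counts in all 4 MHCIIlo libraries.

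The mean was highest in Tspan8negMHCIIhi for 6 of the 7 genes, the exception being Lalba, with 2 counts in Tspan8negMHCIIlo and 1 in Tspan8negMHCIIhi. Of all 25466 genes, 36.3% had their highest mean in Tspan8negMHCIIhi and 30.6% in Tspan8negMHCIIlo. The design gave 4 comparisons, Tspan8pos against Tspan8neg at each MHCII level and MHCIIhi against MHCIIlo at each Tspan8 level. A gene was called when edgeR's quasi-likelihood test gave an adjusted p under 0.01 over all 17006 genes tested and a log2 fold change of at least 1 in either direction. The filter on low counts was passed by Csn2, Csn1s2a, Csn1s1 and Csn3. Wap, Csn1s2b and Lalba did not pass and have no test. A gene can pass the filter through 1 subset alone, so the counts of calls below describe the genes and are not evidence on them as a group.

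Csn2 was measured at 31.0 and 58.0 CPM in Tspan8negMHCIIlo, 720 and 905 CPM in Tspan8negMHCIIhi, 220 and 242 CPM in Tspan8posMHCIIhi, and 78.8 and 88.9 CPM in Tspan8posMHCIIlo. No subset overlapped another, and the order from high to low was Tspan8negMHCIIhi, Tspan8posMHCIIhi, Tspan8posMHCIIlo and Tspan8negMHCIIlo. The means ± SD (n = 2) in this order were 812 ± 130, 231 ± 15.7, 83.9 ± 7.14 and 44.5 ± 19.1 CPM. Each neighbouring pair in this order was called.

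Between the MHCII levels, Csn2 rose in MHCIIhi by 4.18 ± 0.24 (log2 fold change ± SE, adjusted p = 9.68e-07) among Tspan8neg cells. Among Tspan8pos cells it rose by 1.45 ± 0.22 (adjusted p = 0.00111). The call among Tspan8pos cells was lost without replicate 2 of Tspan8posMHCIIhi (adjusted p = 0.0123) and without replicate 1 or 2 of Tspan8posMHCIIlo (adjusted p = 0.0167 and 0.0207), with a log2 fold change of 1.40 to 1.55 in every case.

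With Tspan8, Csn2 moved in opposite directions at the 2 MHCII levels. Among MHCIIhi cells it was lower in Tspan8pos, with a log2 fold change of -1.64 ± 0.21 (adjusted p = 0.000133). Among MHCIIlo cells it was higher in Tspan8pos by 1.09 ± 0.23 (adjusted p = 0.00322). The difference between these 2 values, -2.73 ± 0.31, was itself called (adjusted p = 0.000534), as for 4.6% of all genes tested. Leaving out any single library kept it called at -3.21 to -2.35. The increase within MHCIIlo was less firm. The Tspan8negMHCIIlo replicate with less Csn2, 31.0 against 58.0 CPM, was also the one with the lower thymocyte marker sum, 437 against 1295 CPM. The log2 fold change was 1.58 without replicate 2 of Tspan8negMHCIIlo. Without replicate 1 it fell to 0.74, below the fold required, so the call was lost. The call was also lost without replicate 1 or 2 of Tspan8posMHCIIlo and in an edgeR fit of the 4 compared libraries alone (adjusted p = 0.0150).

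**Figure D2:**
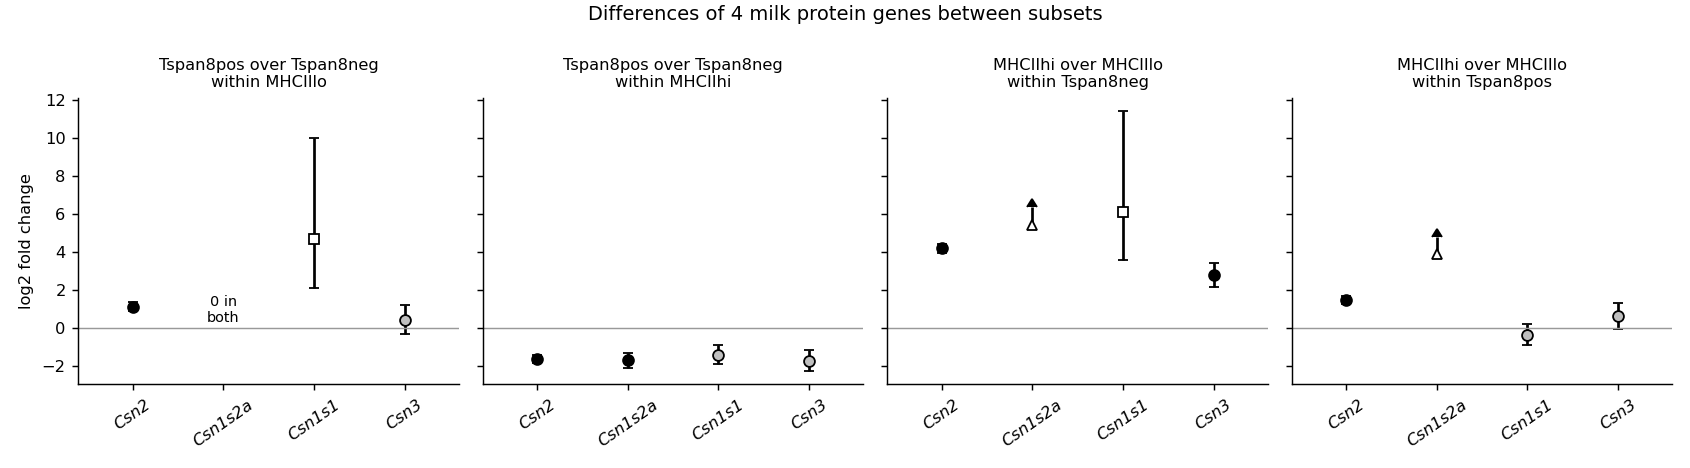
Differences of the 4 tested milk protein genes in the 4 comparisons, as log2 fold changes. Circles are fitted values with their standard error (black called, grey not called), open squares are ratios of pooled counts with an exact 95% interval where a subset had 1 to 3 counts, and triangles are lower bounds where a subset had 0 counts. Csn2 is below 0 only in the second panel, and the Csn1s1 squares carry intervals that span several log2 units.

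Csn1s2a had 0 counts in all 4 MHCIIlo libraries. It had 68 and 139 counts in Tspan8negMHCIIhi (14.9 and 19.0 CPM) and 28 and 20 counts in Tspan8posMHCIIhi (5.15 and 3.87 CPM). It was thus found in MHCIIhi cells alone at this depth. For 0 counts over a subset, the exact 95% upper limit was 0.499 CPM in Tspan8negMHCIIlo and 0.379 CPM in Tspan8posMHCIIlo. The floor of 3 counts over a subset equals 0.406 and 0.308 CPM there. Against this floor Csn1s2a was at least 43.0-fold higher in MHCIIhi among Tspan8neg cells (adjusted p of edgeR's fit 5.33e-05). Among Tspan8pos cells it was at least 14.7-fold higher (adjusted p of edgeR's fit 0.00124). The latter call was lost without replicate 2 of Tspan8posMHCIIlo (adjusted p = 0.0415).

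Within MHCIIhi, Csn1s2a was lower in Tspan8pos, with a log2 fold change of -1.73 ± 0.38 (adjusted p = 0.00668). The direction stayed the same without any 1 of the 4 MHCIIhi libraries, at -1.96 to -1.51, but the call was lost each time, with adjusted p values of 0.0285 and 0.0899 without replicates 1 and 2 of Tspan8negMHCIIhi and 0.0310 and 0.0605 without replicates 1 and 2 of Tspan8posMHCIIhi. DESeq2 gave an adjusted p of 0.0346. Within MHCIIlo both subsets are at 0, so neither a Tspan8 difference there nor its comparison with the one within MHCIIhi can be given.

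Csn1s1 was detected in every library of 3 subsets and nearly absent from Tspan8negMHCIIlo. It had 1 and 0 counts in Tspan8negMHCIIlo, 36 and 73 in Tspan8negMHCIIhi (7.91 and 9.99 CPM), 19 and 12 in Tspan8posMHCIIhi (3.50 and 2.32 CPM), and 11 and 22 in Tspan8posMHCIIlo (5.67 and 2.83 CPM). Tspan8negMHCIIhi was highest without overlap, Tspan8negMHCIIlo was lowest without overlap, and both Tspan8pos subsets overlapped each other.

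By pooled counts, Csn1s1 was 67.9 times higher in MHCIIhi than in MHCIIlo among Tspan8neg cells (exact 95% interval 11.9 to 2705). The ratio was 31.8 without replicate 2 of Tspan8negMHCIIlo and at least 12.0 without replicate 1, which held the single count. The adjusted p of this comparison, 0.000281, is that of edgeR's fit and not of the pooled ratio. Among Tspan8pos cells the log2 fold change was -0.38 ± 0.55 (adjusted p = 0.746). Within MHCIIlo the pooled counts of Csn1s1 were 25.1 times higher in Tspan8pos than in Tspan8neg (4.20 to 1019, with an adjusted p of 0.00216 from edgeR's fit). This ratio was 11.7 without replicate 2 of Tspan8negMHCIIlo, at least 4.44 without replicate 1 of Tspan8negMHCIIlo and 41.8 without replicate 2 of Tspan8posMHCIIlo, and the call was lost without replicate 2 of Tspan8negMHCIIlo (adjusted p = 0.0120), in a fit of the 4 compared libraries alone (adjusted p = 0.0112) and after thinning every library to the smallest total (adjusted p = 0.0433). Within MHCIIhi the log2 fold change between Tspan8pos and Tspan8neg was -1.44 ± 0.49 and was not called (adjusted p = 0.0399). The Tspan8 difference itself differed between the MHCII levels (adjusted p = 0.00446), but this call was lost when any 1 of the 6 libraries outside Tspan8negMHCIIlo was left out (adjusted p = 0.0137 to 0.0254).

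For 100 Csn2 counts, Csn1s1 had 1.10 and 1.10 counts in Tspan8negMHCIIhi and 1.59 and 0.960 in Tspan8posMHCIIhi. In Tspan8posMHCIIlo it had 7.19 (95% Wilson interval 4.06 to 12.4) and 3.18 (2.11 to 4.77). In Tspan8negMHCIIlo it had 0.935 and 0, on 107 and 228 Csn2 counts. The lowest of the Tspan8posMHCIIlo intervals lay above the intervals of both Tspan8negMHCIIhi libraries and of replicate 2 of Tspan8posMHCIIhi, and it overlapped that of replicate 1 of Tspan8posMHCIIhi, which reached 2.47, and that of replicate 1 of Tspan8negMHCIIlo, which reached 5.10. No test of this ratio was made.

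Csn3 had 34 and 41 counts in Tspan8negMHCIIhi (7.47 and 5.61 CPM) and 2 to 12 counts in every other library. Its CPM was 0.579 and 1.27 in Tspan8negMHCIIlo, 1.10 and 2.32 in Tspan8posMHCIIhi, and 1.03 and 1.16 in Tspan8posMHCIIlo. Tspan8negMHCIIhi lay above all other subsets without overlap, and those 3 were not separated from each other at this depth. Among Tspan8neg cells Csn3 was higher in MHCIIhi by 2.75 ± 0.64 (adjusted p = 0.00511), a call that was lost with DESeq2 (adjusted p = 0.0210), without replicate 1 or 2 of Tspan8negMHCIIhi (adjusted p = 0.0493 and 0.0267) and without replicate 1 of Tspan8negMHCIIlo (adjusted p = 0.0246). The Tspan8pos to Tspan8neg value was -1.74 ± 0.56 (adjusted p = 0.0290) within MHCIIhi and 0.41 ± 0.77 (adjusted p = 0.705) within MHCIIlo, and the MHCIIhi to MHCIIlo value among Tspan8pos cells was 0.60 ± 0.67 (adjusted p = 0.621). None of these 3 was called.

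Wap had 7 and 37 counts in Tspan8negMHCIIhi (1.54 and 5.06 CPM), 7 and 5 in Tspan8posMHCIIhi (1.29 and 0.969 CPM), 0 and 3 in Tspan8negMHCIIlo, and 0 in both Tspan8posMHCIIlo libraries. The Tspan8negMHCIIhi replicates differed by more than their counting intervals. From pooled counts, with no test over replicates, Tspan8negMHCIIhi exceeded Tspan8negMHCIIlo 9.13 times (exact 95% interval 2.93 to 46.0) and Tspan8posMHCIIhi 3.28 times (1.70 to 6.81). Both ratios rested on replicate 2 of Tspan8negMHCIIhi, without which they were 3.79 (0.864 to 22.7) and 1.36 (0.453 to 3.74). The first was also 4.86 without replicate 1 of Tspan8negMHCIIlo and at least 4.27 without replicate 2. Tspan8posMHCIIhi was at least 3.67-fold higher than Tspan8posMHCIIlo. Csn1s2b had 3 and 1 counts in Tspan8negMHCIIhi and none elsewhere, and Lalba had 2 counts in replicate 2 of Tspan8negMHCIIlo and 1 in replicate 2 of Tspan8negMHCIIhi. At this depth neither gene can be compared between subsets.

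Counted over the genes, 4 of the 4 tested milk genes were called higher in MHCIIhi among Tspan8neg cells, where 13.1% of all genes tested were called higher and 9.67% lower. Among Tspan8pos cells Csn2 and Csn1s2a were called higher and none lower, beside 4.59% and 2.62% of all genes. Within MHCIIhi, Csn2 and Csn1s2a were called lower in Tspan8pos and none higher, beside 7.45% and 11.0% of all genes. Within MHCIIlo, Csn2 and Csn1s1 were called higher in Tspan8pos and none lower, beside 12.1% and 9.34% of all genes. The difference of the Tspan8 effect between MHCII levels was called for Csn2 and Csn1s1 in the negative direction, with 2.36% of all genes. In the remaining pairs of subsets, Csn2, Csn1s2a and Csn1s1 were higher in Tspan8posMHCIIhi than in Tspan8negMHCIIlo (14.4% of all genes), and Csn2, Csn1s2a and Csn3 were lower in Tspan8posMHCIIlo than in Tspan8negMHCIIhi (14.6% of all genes). The log2 fold changes of Csn2 in these pairs were 2.54 ± 0.23 (adjusted p = 7.84e-06) and -3.09 ± 0.23 (adjusted p = 1.17e-06). The call of Csn1s1 in the first of these pairs was lost with DESeq2 (adjusted p = 0.0136), without replicate 2 of Tspan8negMHCIIlo (adjusted p = 0.0201), without replicate 1 of Tspan8posMHCIIhi (adjusted p = 0.0210), in a fit of the 4 compared libraries alone (adjusted p = 0.0115) and after thinning (adjusted p = 0.0390). Csn3 in the last pair, at -2.34 ± 0.62 (adjusted p = 0.00829), was not called with DESeq2 (adjusted p = 0.0433) or with the replicate number as a block (adjusted p = 0.0112), nor without either replicate of Tspan8negMHCIIhi or Tspan8posMHCIIlo or without replicate 2 of Tspan8posMHCIIhi (adjusted p = 0.0110 to 0.0827).

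The level of Csn2 was set beside that of Aire, the regulator of promiscuous expression. Aire was at 2808 and 2644 CPM in Tspan8negMHCIIhi, 372 and 516 CPM in Tspan8posMHCIIhi, 219 and 221 CPM in Tspan8negMHCIIlo, and 13.9 and 33.3 CPM in Tspan8posMHCIIlo. Both genes were highest in Tspan8negMHCIIhi, but Aire was lowest in Tspan8posMHCIIlo and Csn2 in Tspan8negMHCIIlo. Aire fell in Tspan8pos within MHCIIlo by a log2 fold change of 2.91 ± 0.28 (adjusted p = 1.24e-05), while Csn2 rose there. For each Aire count there were 0.142 and 0.263 Csn2 counts in Tspan8negMHCIIlo, 0.257 and 0.342 in Tspan8negMHCIIhi, 0.592 and 0.469 in Tspan8posMHCIIhi, and 5.67 and 2.67 in Tspan8posMHCIIlo. Aire overlaps Dnmt3l on the other strand, so its counts share the uncertainty on strand. Fezf2, the other known regulator of such genes, had 460 and 444 CPM in Tspan8negMHCIIhi against 127 to 330 CPM in the other libraries, and it was called higher in MHCIIhi among Tspan8neg cells (1.31 ± 0.17, adjusted p = 0.000110) and Tspan8pos cells (1.00 ± 0.17, adjusted p = 0.00190). Its Tspan8pos to Tspan8neg values were -0.09 ± 0.17 within MHCIIlo (adjusted p = 0.702) and -0.40 ± 0.16 within MHCIIhi (adjusted p = 0.0723). The part of Aire and Fezf2 in the Csn2 levels was not tested.

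**Figure D3:**
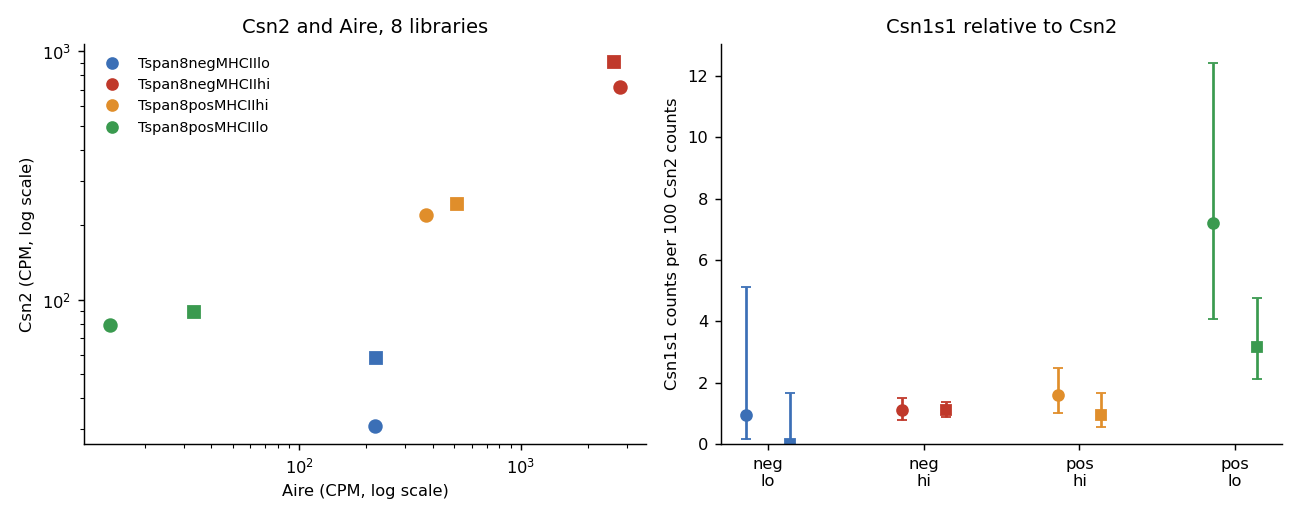
Left, Csn2 against Aire in the 8 libraries, both in CPM on log axes. Right, Csn1s1 counts per 100 Csn2 counts with 95% Wilson intervals; circles are replicate 1 and squares replicate 2. The Tspan8posMHCIIlo libraries have the lowest Aire levels (13.9 and 33.3 CPM) but not the lowest Csn2 levels, and the highest Csn1s1 values (7.19 and 3.18).

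The other mTEC genes looked at set the frame for these subsets. H2-Ab1, an MHC class II chain, and Cd80, a costimulatory ligand of mature mTECs, were called higher in MHCIIhi at both Tspan8 levels, H2-Ab1 by 1.42 ± 0.12 and 2.33 ± 0.13 and Cd80 by 3.80 ± 0.27 and 1.83 ± 0.27 among Tspan8neg and Tspan8pos cells. Ivl and Krt10, genes of keratinizing epithelium, were called higher in Tspan8pos at both MHCII levels. Ivl was at 5.89 to 9.66 CPM in the Tspan8neg and 201 to 343 CPM in the Tspan8pos libraries, the reverse of the Csn2 pattern within MHCIIhi. Epcam, the sort marker of epithelium, was called higher in Tspan8pos within MHCIIlo alone (1.20 ± 0.17, adjusted p = 0.000201). Like Csn2, Cd80 was called in the difference of its Tspan8 effect between MHCII levels (-1.97 ± 0.39, adjusted p = 0.00873).

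Around the caseins, 21 further protein-coding genes are annotated within 500 kb of the span, 2 of them, Prr27 and Odam, inside it. Of the 21, 11 are in the table, and of these 7 had their highest mean in Tspan8negMHCIIhi, 3 in Tspan8posMHCIIhi and 1 in Tspan8posMHCIIlo. Of all 25466 genes, 36.3%, 14.6% and 18.4% had their highest mean in these subsets. Some of the 7 rest on few counts, such as Ugt2a3 with 4 and 2 and Gm28434 with 4 and 4 in Tspan8negMHCIIhi. Odam, an enamel-associated gene, had 7 and 11 counts in Tspan8negMHCIIhi and 0 to 3 elsewhere, and Prr27 had 1 count in each Tspan8negMHCIIhi library and none elsewhere. BC037156, a lincRNA gene between Odam and Csn3, had 30 and 61 counts in Tspan8negMHCIIhi, 15 and 19 in Tspan8posMHCIIhi, 0 and 1 in Tspan8negMHCIIlo, and 1 and 4 in Tspan8posMHCIIlo. It was called higher in MHCIIhi among Tspan8neg cells (adjusted p = 0.000274).

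Neighbours farther out did not all share the pattern of the caseins. Amtn, amelotin of the enamel epithelium, had 75 and 102 counts in Tspan8negMHCIIhi, 6 and 13 in Tspan8posMHCIIhi, 0 in both Tspan8negMHCIIlo libraries, and 1 and 2 in Tspan8posMHCIIlo. It was called lower in Tspan8pos within MHCIIhi (-2.88 ± 0.48, adjusted p = 0.000956) and higher in MHCIIhi among Tspan8neg cells (adjusted p = 6.13e-05). Prol1, a proline-rich secreted protein gene, had 30 and 325 counts in Tspan8posMHCIIlo and 0 to 5 in every other library, and was called higher in Tspan8pos within MHCIIlo (adjusted p = 0.000125). Sult1b1, a cytosolic sulfotransferase gene, had 54 and 54 counts in Tspan8posMHCIIhi, 5 and 28 in Tspan8posMHCIIlo and 1 to 8 in the Tspan8neg libraries. It was called higher in Tspan8pos within MHCIIhi (3.63, adjusted p = 0.000186), where Csn2 was lower. Within MHCIIlo it was called higher in Tspan8pos too (3.08, adjusted p = 0.00392), as Csn2 was. Its neighbour Sult1e1, an estrogen sulfotransferase gene, had 9 and 34 counts in Tspan8negMHCIIhi and 0 to 5 elsewhere and was not tested. Sult1d1, between them, had 14 and 17 counts in Tspan8negMHCIIhi and 20 and 17 in Tspan8posMHCIIhi. The counts of the other protein-coding genes in the window were 10 or fewer in each library.

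**Figure D4:**
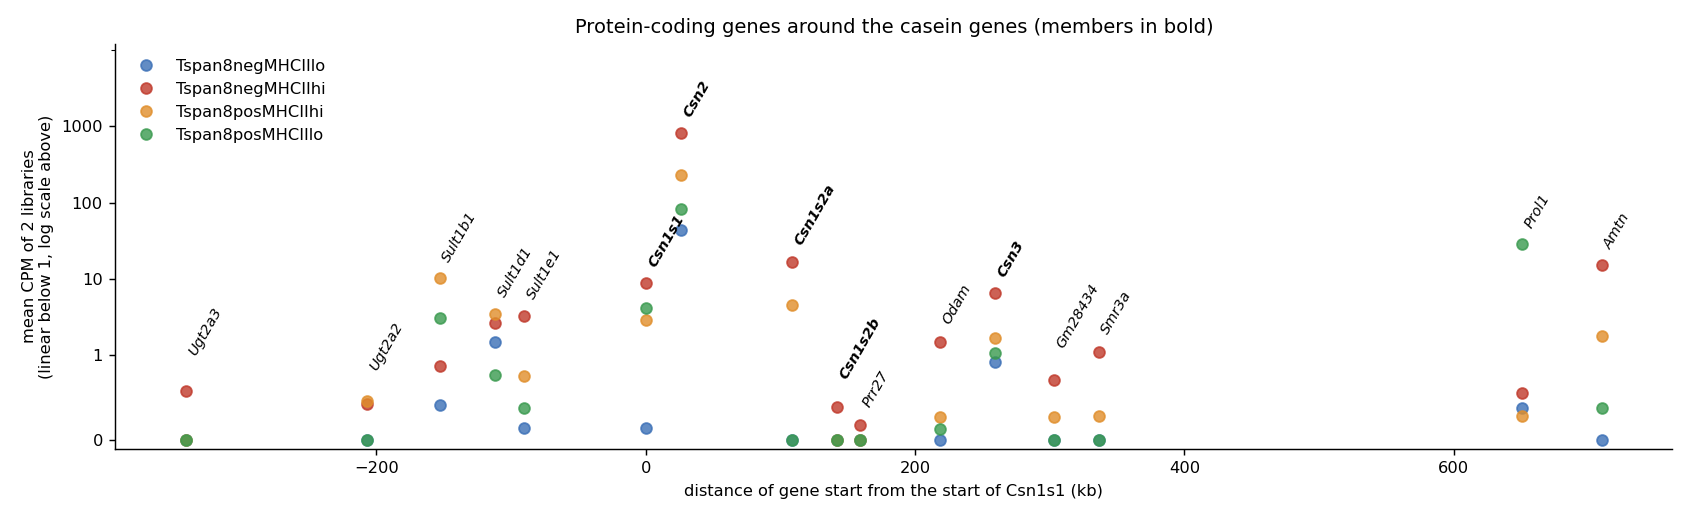
Mean CPM of each subset (n = 2) for the casein genes, in bold, and the protein-coding genes of the table within 500 kb, against the distance of the gene from Csn1s1 in kb. The axis is linear below 1 and logarithmic above it. Red, Tspan8negMHCIIhi, is on top for 7 of the 11 neighbours, some of them on few counts, beside 36.3% of all 25466 genes. Prol1 is highest in Tspan8posMHCIIlo, and Sult1b1 is highest in Tspan8posMHCIIhi.

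Caseins belong to the secretory calcium-binding phosphoproteins, a family that also holds enamel, bone and salivary genes. The counts of calls in the gene lists that follow are to be read against the shares of all genes called. These were 13.1% higher and 9.67% lower in MHCIIhi among Tspan8neg cells, 4.59% and 2.62% among Tspan8pos cells, 12.1% higher and 9.34% lower in Tspan8pos within MHCIIlo, and 11.0% and 7.45% within MHCIIhi. Of 14 other genes in the table that belong to this family or are related to it, 6 passed the filter on low counts. Among Tspan8neg cells 4 of the 6 were called higher and 1 lower in MHCIIhi, with a median log2 fold change of 3.63 beside -0.04 over all genes tested. Among Tspan8pos cells 2 were called higher and 1 lower (median 2.16, or 1.82 with genes at 0 counts set to their bound, beside 0.01). Within MHCIIhi none was called higher and 1 lower in Tspan8pos (median -0.76), and within MHCIIlo 1 was called each way (median 0.50, or 0.00 with bounds), beside -0.03 in both. Spp1, osteopontin, which is also abundant in milk, was at 64.8 and 89.7 CPM in Tspan8negMHCIIhi and 3.47 and 9.42 CPM in Tspan8negMHCIIlo, a difference of 3.55 ± 0.32 (adjusted p = 1.25e-05). Amelx, amelogenin, which overlaps Arhgap6 on the other strand, was at 15.2 and 20.7 CPM in Tspan8negMHCIIhi, 11.2 and 8.33 CPM in Tspan8posMHCIIhi, and 0.257 to 2.04 CPM in the MHCIIlo libraries. Ibsp, bone sialoprotein, had 3.73 and 6.43 CPM in Tspan8negMHCIIhi, 0.552 and 1.55 CPM in Tspan8posMHCIIhi and 0 in all MHCIIlo libraries. The gene that fell in MHCIIhi among Tspan8neg cells was Sparcl1, a secreted matrix protein gene (-2.34 ± 0.30, adjusted p = 0.000109).

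Whey acidic protein shares its domain with a family of protease inhibitors, and lactalbumin descends from lysozyme. Of 18 other genes of the Wap domain family in the table, 10 were tested. In Tspan8pos, 6 were called higher and 1 lower within MHCIIlo (median 1.93), beside 12.1% and 9.34% of all genes, and 5 higher and none lower within MHCIIhi (median 1.98), beside 11.0% and 7.45%. The median over all genes was -0.03 in both. Among them Wfdc2 was at 30.7 to 57.2 CPM in the Tspan8neg and 582 to 757 CPM in the Tspan8pos libraries, and Wfdc21 at 0.289 to 8.49 CPM and 36.1 to 82.0 CPM. Wfdc5 was at 0 to 0.958 CPM and 9.94 to 17.0 CPM. Wap itself was 3.28 times higher in Tspan8negMHCIIhi than in Tspan8posMHCIIhi by pooled counts, but 1.36 times (0.453 to 3.74) without replicate 2 of Tspan8negMHCIIhi. The single gene that fell was Wfikkn2, at 358 and 217 CPM in Tspan8negMHCIIlo and 38.1 and 23.3 CPM in Tspan8posMHCIIlo (-3.16 ± 0.29, adjusted p = 8.87e-06). Between the MHCII levels, 2 were called higher and 2 lower in MHCIIhi among Tspan8neg cells (median 1.48), and 1 higher and none lower among Tspan8pos cells (median 0.23). Slpi, the leukocyte protease inhibitor, was the gene called higher at both Tspan8 levels (2.63 ± 0.30 and 1.47 ± 0.28). Wfdc12 had 0.289 and 0 CPM in Tspan8negMHCIIlo and 2.20 to 9.51 CPM elsewhere.

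Of 5 lysozyme family genes in the table, 3 were tested. Lyz1 and Lyz2, near-identical lysozymes whose reads may be shared, were called higher in MHCIIhi among Tspan8neg cells (1.75 ± 0.26 and 2.93 ± 0.26) and Tspan8pos cells (2.08 ± 0.26 and 1.84 ± 0.25). Lyz2 is also a gene of macrophages, and the median log2 fold changes of the 6 markers of dendritic cells and macrophages in these comparisons were 1.63 and 1.61, whose part in the Lyz2 values was not tested. Within MHCIIhi, Lyz1 was called higher in Tspan8pos (1.25 ± 0.25, adjusted p = 0.00235), and within MHCIIlo none was called. The medians of the 3 genes were 2.93 and 1.84 between the MHCII levels and 0.92 and 0.11 between Tspan8pos and Tspan8neg within MHCIIlo and MHCIIhi. Lyzl4 stayed at 0 to 2.91 CPM and was not called in any of the 4 comparisons.

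Other genes of milk and lactation were taken as a list of 24, all in the table, of which 23 were tested. Among Tspan8neg cells 8 were called higher and 3 lower in MHCIIhi (median 0.77 beside -0.04 over all genes), where 13.1% and 9.67% of all genes were. Among Tspan8pos cells 6 were called higher and none lower (median 0.72 beside 0.01), where 4.59% and 2.62% of all genes were. In Tspan8pos, 9 were called higher and 2 lower within MHCIIlo (median 0.21, or 0.14 with bounds, beside -0.03), where 12.1% and 9.34% of all genes were, and 8 higher and 1 lower within MHCIIhi (median 0.06 beside -0.03), where 11.0% and 7.45% were. Ltf, the iron-binding lactoferrin, was at 8.97 to 50.9 CPM in the Tspan8neg libraries and 378 to 742 CPM in the Tspan8pos libraries, with differences of 4.75 ± 0.53 within MHCIIlo and 3.98 ± 0.50 within MHCIIhi. Pigr, which carries IgA into secretions, was at 57.6 to 142 CPM in Tspan8neg and 363 to 984 CPM in Tspan8pos. Wfdc18, a small secreted protein of the Wap family, was at 76.2 to 198 CPM and 330 to 639 CPM. Muc15, a mucin of the milk fat globule, was at 0.289 to 4.65 CPM and 18.1 to 33.7 CPM. Csn2 within MHCIIhi went the other way.

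Several genes of this list were highest in MHCIIhi cells. Btn1a1, butyrophilin of the milk fat globule, had 2.64 and 3.56 CPM in Tspan8negMHCIIhi, 1.66 and 0.775 CPM in Tspan8posMHCIIhi, 0.515 and 0.385 CPM in Tspan8posMHCIIlo and 0 in Tspan8negMHCIIlo, and was called higher in MHCIIhi among Tspan8neg cells (adjusted p = 0.00336). Fabp3, a fatty acid binding protein gene, had 12.1 and 11.6 CPM in Tspan8negMHCIIhi, 1.55 and 2.39 CPM in Tspan8posMHCIIhi, 1.74 and 0 CPM in Tspan8negMHCIIlo and 0 in Tspan8posMHCIIlo. Atp2b2, the calcium pump that moves calcium into milk, was at 37.3 and 38.3 CPM in Tspan8negMHCIIhi, 9.94 and 10.7 CPM in Tspan8posMHCIIhi, and 2.06 to 2.89 CPM in the MHCIIlo libraries. It was called higher in MHCIIhi at both Tspan8 levels (3.71 ± 0.28 and 2.07 ± 0.30) and lower in Tspan8pos within MHCIIhi (-1.70 ± 0.22, adjusted p = 0.000149), and it overlaps other annotated genes on both strands. Cel, a lipase of pancreas and milk, was at 13.8 and 17.8 CPM in Tspan8negMHCIIhi, 4.60 and 6.01 CPM in Tspan8posMHCIIhi, 1.45 and 2.80 CPM in Tspan8negMHCIIlo, and 0 and 0.128 CPM in Tspan8posMHCIIlo. Plin2, a lipid droplet coat gene, was highest in Tspan8posMHCIIhi, at 95.4 and 108 CPM, against 22.4 to 57.6 CPM elsewhere.

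The known regulators of milk genes in the mammary gland moved in both directions. Of the 21 listed, 19 were tested, and 1 was called higher and 5 lower in MHCIIhi among Tspan8neg cells (median -0.34 beside -0.04), and none higher and 1 lower among Tspan8pos cells (median -0.26 beside 0.01). In Tspan8pos 4 were called higher and 4 lower within MHCIIlo (median -0.40), beside 12.1% and 9.34% of all genes, and 3 higher and 2 lower within MHCIIhi (median 0.35), beside 11.0% and 7.45%. The median over all genes was -0.03 in both. Prlr, the prolactin receptor, was at 5.85 to 13.3 CPM in all libraries and was not called in any comparison. Prl, prolactin itself, had 0.220 and 0.274 CPM in Tspan8negMHCIIhi and 0 elsewhere, which is below the floor, and was not tested. Nr3c1, the glucocorticoid receptor, was at 36.1 to 85.0 CPM and was not called.

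Stat5a, the main signal transducer of prolactin, was at 510 and 435 CPM in Tspan8negMHCIIhi, 276 and 277 CPM in Tspan8negMHCIIlo, 150 and 155 CPM in Tspan8posMHCIIhi, and 83.4 and 90.2 CPM in Tspan8posMHCIIlo. Stat5a overlaps Stat3 on the other strand, so its counts share the uncertainty on strand. It was lower in Tspan8pos by a similar amount at both MHCII levels. The log2 fold changes were -1.50 ± 0.14 within MHCIIlo (adjusted p = 9.63e-06) and -1.45 ± 0.13 within MHCIIhi (adjusted p = 1.02e-05). Those of Csn2 were 1.09 within MHCIIlo and -1.64 within MHCIIhi. Stat5b, a close homolog of Stat5a, had -0.95 ± 0.24 within MHCIIlo, below the fold required. Elf5, an Ets factor of the milk-secreting epithelium, was at 0 and 1.27 CPM in Tspan8negMHCIIlo, 4.83 and 6.71 CPM in Tspan8negMHCIIhi, 9.02 and 9.30 CPM in Tspan8posMHCIIhi, and 8.76 and 13.9 CPM in Tspan8posMHCIIlo. It was called higher in MHCIIhi among Tspan8neg cells (adjusted p = 0.00448) and in Tspan8pos within MHCIIlo (adjusted p = 0.000412). Within MHCIIhi, where Csn2 fell in Tspan8pos, the Elf5 value was 0.82 ± 0.46 (adjusted p = 0.179). The part of these factors and of the other listed regulators in the Csn2 levels was not tested.

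Among the inhibitors and other factors, Socs3, a feedback inhibitor of cytokine signaling, was at 1344 and 1002 CPM in Tspan8negMHCIIlo and 218 to 380 CPM elsewhere, with -2.40 ± 0.17 in MHCIIhi among Tspan8neg cells (adjusted p = 2.42e-06). Cish, another such inhibitor, was at 182 to 275 CPM and was not called. Cav1, caveolin, a brake on prolactin signaling, fell in MHCIIhi at both Tspan8 levels (-2.18 ± 0.44 and -2.29 ± 0.50). Cav1 is also abundant in endothelium, and the median log2 fold changes of the 5 endothelial markers in these comparisons were -2.36 and -1.83, whose part in the Cav1 values was not tested. Cebpb and Gata3, factors of mammary epithelium, were called higher in Tspan8pos at both MHCII levels, Cebpb by 1.73 ± 0.22 and 2.43 ± 0.22 and Gata3 by 1.12 ± 0.26 and 1.95 ± 0.26 within MHCIIlo and MHCIIhi. Esr1, the estrogen receptor, fell in Tspan8pos within MHCIIlo (-2.14 ± 0.52, adjusted p = 0.00677). Pgr, the progesterone receptor, fell in Tspan8pos within MHCIIhi (-3.09 ± 0.75, adjusted p = 0.00744), from 7.91 and 3.56 CPM to 0.920 and 0.194 CPM.

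**Figure D5:**
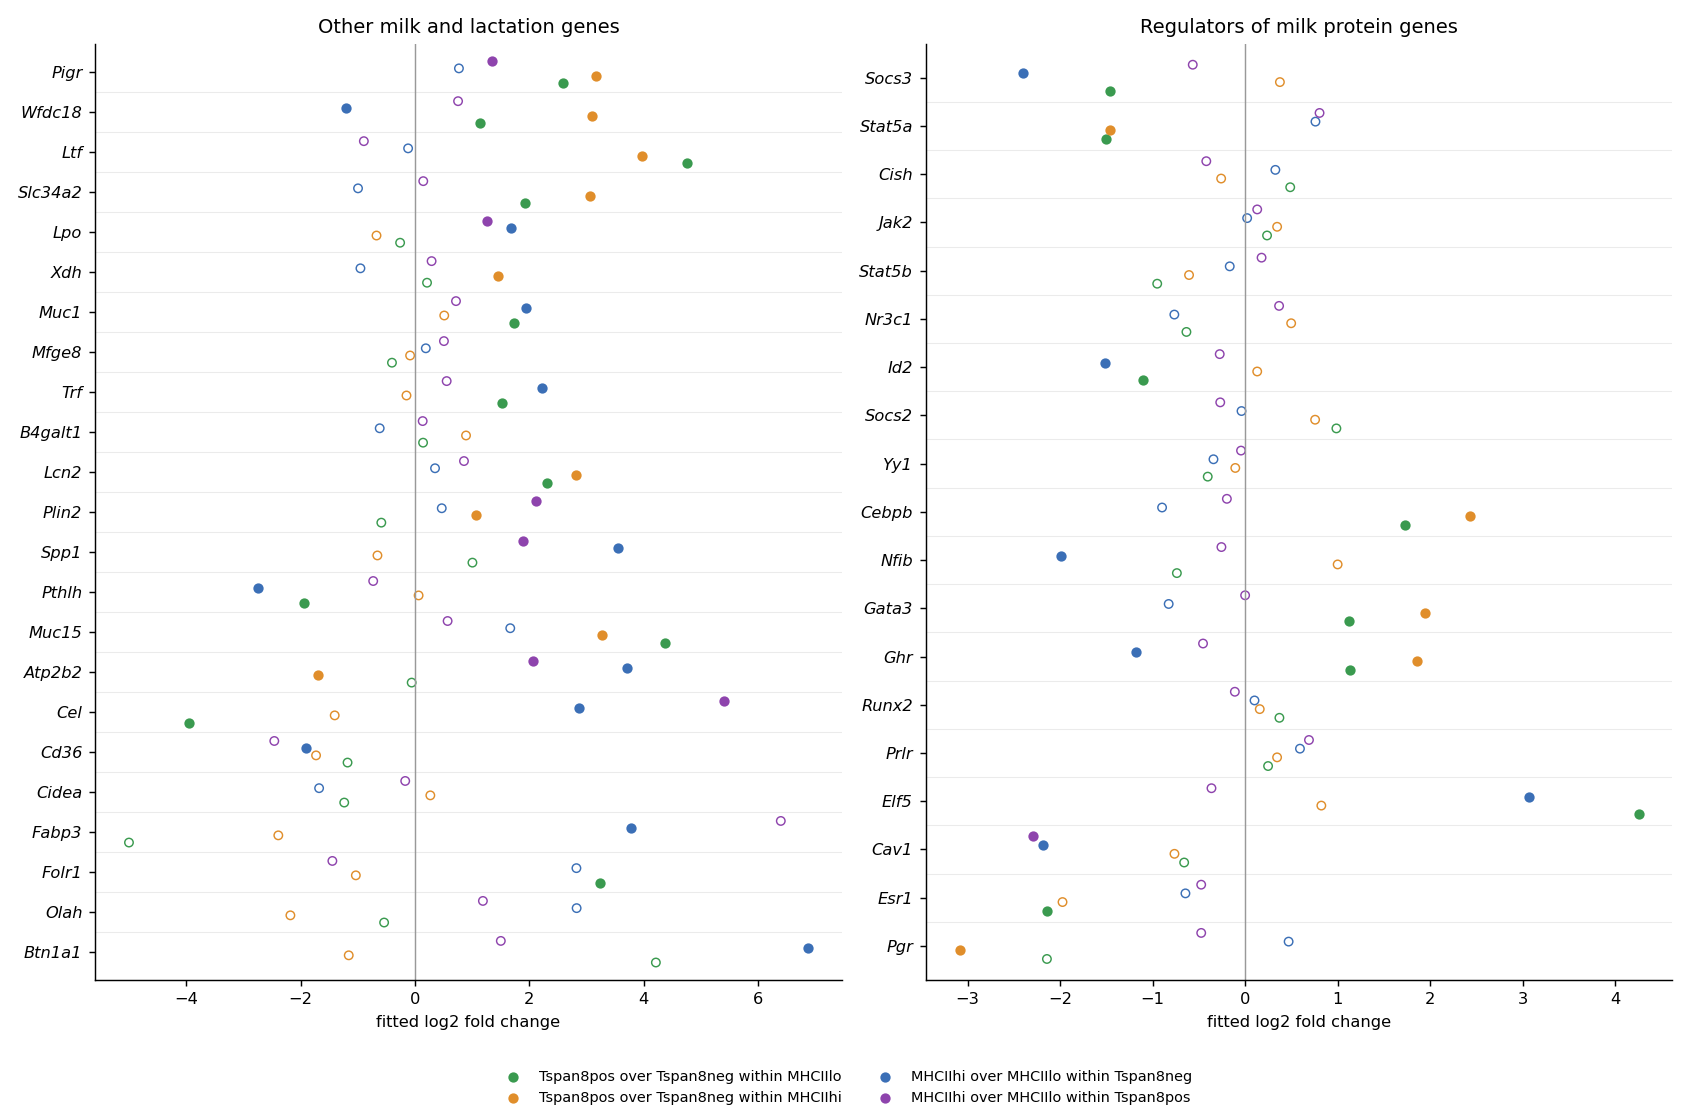
Fitted log2 fold changes of the tested genes of other milk and lactation genes (left, 23 genes) and of regulators of milk protein genes (right, 19 genes) in the 4 comparisons, genes ordered by mean CPM from top to bottom. Filled circles were called and open circles were not. Fitted values of genes with a subset at 0 counts, such as Btn1a1 and Fabp3, depend on the prior count and give no fold. Ltf, Pigr and Wfdc18 have filled green and orange circles above 0, and Stat5a has both below 0.

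Csn2 alone among the milk protein genes averaged 10 CPM or more, and its profile over the 8 libraries was compared with those of the 11050 genes at that level. By Pearson correlation of log2(CPM + 1), the nearest were Epb42 (r = 0.996), an erythrocyte membrane protein gene, Creld2 (r = 0.994), an endoplasmic reticulum gene, and Fabp6 (r = 0.994), the ileal bile acid binding protein. Epb42 was at 26.4 and 39.6 CPM in Tspan8negMHCIIhi and 0 to 9.88 CPM elsewhere. Fabp6 was at 32.1 and 41.3 CPM in Tspan8negMHCIIhi and 0.289 to 8.52 CPM elsewhere. Aire came 1184th, with r = 0.751. The 8 points fall into 4 subsets, so r mainly reflects 4 means and is given as a description. With a pseudocount of 0.25 in place of 1, 2 of the 3 nearest genes were shared, and with Spearman correlation, where 23 genes tied at 1, none of them.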

How the data were processed

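RNA-seq of 8 libraries of sorted wild-type mTECs was analysed, grouped by the subset and replicate number in the sample titles. The values deposited by the authors are estimated counts, whole and not normalized, for each gene in each library. Salmon and the GENCODE transcripts of the mouse were used to make them, as the methods say, and the submitters' processing notes name Salmon 1.8.0, DESeq2 1.30.0, FastQC and the build mm10. The rounding step is not given in the sources used here. The labels name a stranded mRNA kit and the methods pre-amplified, tagmented cDNA, so genes overlapped on the other strand are uncertain. These include Tspan8, Krt10, Stat5a, Cebpb, Gata3, Cish, Cav1, Fabp3, Cel, Muc15, Sparcl1, Wfdc5, Wfdc12 and Lyzl4. No molecular identifiers are named in the sources used here, so PCR copies may count more than once.

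Identifiers were matched to GENCODE symbols on GRCm38 (25336 of 25466). Counts were tested in R 4.3.3 with edgeR 4.0.16 (quasi-likelihood, TMM, filterByExpr, all 8 libraries in 1 fit), two-sided, with Benjamini-Hochberg adjustment over 17006 genes, and called at an adjusted p of 0.01 and an absolute log2 fold change of 1. P-values measure the spread between these libraries, and an exact permutation test of 2 against 2 cannot go below 0.333. Each standard error is the size of the log2 fold change over the square root of F. A subset at 0 counts gave a lower bound against 3 counts over the subset, and one with 1 to 3 counts a pooled ratio with an exact 95% interval. On simulated data the test recovered 87.6% of genes changed by 2 on the log2 scale between Tspan8pos and Tspan8neg within MHCIIlo, with 2 false calls among 17006 genes, and 73.7% for the difference of the Tspan8 effect between MHCII levels, with 1. These shares are of all genes changed by that size, those lost to the filter included. The simulation gave every gene the same spread between replicates (a biological coefficient of variation of 15.5%) and picked the changed genes at random. Whether the shares hold for genes with more spread or with few counts was not tested.

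The alternatives were DESeq2 1.42.0, its size factors, no filter, a filter of 10 counts in 4 or more libraries, a fit of the compared libraries, a replicate block, a threshold of 0.05, no fold limit, thinning to the smallest library and leaving out each library, and for ratios of pooled counts leaving out each library (chosen after seeing the data), and for the nearest profiles Spearman's rho and a pseudocount of 0.25. The genes named are the milk protein genes, the protein-coding neighbours within 500 kb, the 3 nearest profiles of Csn2, the mTEC reference genes, Elf5, Prlr, Stat5a, Stat5b and Nr3c1, and from each list the 3 tested genes with the highest mean CPM and the 3 called genes with the largest change per comparison. Prl, BC037156, BC051076, Ambn, Enam, Dspp and Glycam1 were named after their values were seen. The milk protein genes and all lists were chosen with earlier results of these data known.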

Additional observations from a re-analysis of the deposited data

Results flagged for a closer look

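For 2 genes the Tspan8 difference was not the same at the 2 MHCII levels by a test of that difference (edgeR, log2 fold change within MHCIIhi minus that within MHCIIlo). Csn2 gave -2.73 (adjusted p = 0.000534), with -1.64 within MHCIIhi and 1.09 within MHCIIlo. Neither replicate of a subset crossed into the other subset at either level. Csn1s1 gave -6.17 (adjusted p = 0.00446), a fitted value that depends on the prior count because Tspan8negMHCIIlo held 1 count in all, so its size is no fold. Both genes were highest in Tspan8negMHCIIhi and lowest in Tspan8negMHCIIlo. The Tspan8negMHCIIlo libraries also had the highest thymocyte and cortical epithelial marker sums, and the part of that in these values was not tested.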

How the results depend on the processing

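Each of the 7 genes but Csn2 had under 260 counts in all. With 2 libraries per subset, small differences of those genes cannot be seen, and totals differ 4.01-fold between libraries. Over the log2 fold changes of the 4 tested milk genes, 179 of the values without 1 library kept their call and direction, 28 lost the call and 1 reversed. Under the other alternatives that refitted the counts, 154 kept both, 12 lost the call, 2 gained it and 1 reversed. Changes of the threshold alone, a looser adjusted p or no fold limit, are not in these totals. Both reversals were Csn1s1 in MHCIIhi against MHCIIlo among Tspan8pos cells, which was not called at -0.38 and became 0.0068 after thinning and 0.076 without replicate 1 of Tspan8posMHCIIlo (range without 1 library -0.95 to 0.076).

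Of the 2 milk genes called in Tspan8pos against Tspan8neg within MHCIIhi, DESeq2 kept 1 and thinning kept 1 (Csn2 each time), while an adjusted p of 0.05 gave 4 and the compared libraries alone gave 4. The shares of all genes called under these settings are not given here, so the rise to 4 is no result about the milk genes. Within MHCIIlo the 2 became 0 with the compared libraries alone and 1 after thinning, and the 2 for the difference between MHCII levels became 1 after thinning. Without 1 library the counts ranged from 3 to 4 for MHCII among Tspan8neg cells, 0 to 2 among Tspan8pos cells (0 without replicate 2 of Tspan8posMHCIIlo), 1 to 2 for Tspan8 within MHCIIhi, 1 to 2 within MHCIIlo, 1 to 2 for the difference, 2 to 3 for Tspan8posMHCIIhi against Tspan8negMHCIIlo and 2 to 4 for Tspan8posMHCIIlo against Tspan8negMHCIIhi. The ratios of pooled Wap counts without 1 library, an alternative chosen after seeing the data, ranged from 1.36 to 4.47 for Tspan8negMHCIIhi over Tspan8posMHCIIhi. Causes of these changes were not tested, beyond the fewer counts or libraries that thinning and leaving out bring.

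The correlation of deviations between same-numbered replicates was 0.0040 to 0.092, positive but weak in all 6 pairs of subsets. The numbers were not taken to pair the samples, and no source used here says whether same-numbered libraries share mice or a batch. With the replicate block the milk genes called were 2 and 2 for Tspan8 within MHCIIlo and MHCIIhi, 4 and 2 for MHCII among Tspan8neg and Tspan8pos cells, 2 for the difference, 3 for Tspan8posMHCIIhi against Tspan8negMHCIIlo and 2 in place of 3 for Tspan8posMHCIIlo against Tspan8negMHCIIhi. Over all genes, the 783 calls of the difference became 1754 at an adjusted p of 0.05, 1267 without a filter, 1236 with the block and 189 to 1385 without 1 library. The 1226 calls of MHCII among Tspan8pos cells became 1858 at 0.05 and 427 to 1671 without 1 library. The lowest counts without 1 library were 2360 in place of 3866 for MHCII among Tspan8neg cells, 2045 in place of 3143 for Tspan8 within MHCIIhi and 2273 in place of 3640 within MHCIIlo.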

Other observations

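BC051076, an antisense gene beyond Csn3 on the plus strand of chromosome 5, had 11 and 24 counts in Tspan8negMHCIIhi, 0 in the Tspan8negMHCIIlo and Tspan8posMHCIIhi libraries, and 0 and 1 in Tspan8posMHCIIlo. It was called lower in Tspan8pos within MHCIIhi (adjusted p = 0.00552), the same direction as Csn2 and Csn1s2a. It was named after its values were seen.

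Some tooth genes of the phosphoprotein family that holds the caseins were too low to test and had counts in MHCIIhi libraries alone. Ambn had 3.29 and 1.64 CPM and Enam 1.32 and 3.01 CPM in Tspan8negMHCIIhi, and both were at 0 in all 4 MHCIIlo libraries. Dspp, of dentin, had 1.54 and 0.958 CPM in Tspan8negMHCIIhi and 0 in the MHCIIlo libraries. These tooth genes were named after their values were seen. More genes of any kind were above 0 in the Tspan8negMHCIIhi libraries (22705 and 23570) than in the MHCIIlo libraries (18173 to 20777). How many other genes with few counts were at 0 in all MHCIIlo libraries was not counted. Glycam1, a mucin-like whey protein gene, stayed at 0 to 0.821 CPM in all libraries.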
